A study of Caenorhabditis elegans with 3 samples.

Results

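The regions described here were the 261 microRNA genes of Caenorhabditis elegans that Ensembl release 115 places on the 6 nuclear chromosomes of build WBcel235 (ce11), and the peaks of the transcription factor PQM-1 beside them. Each gene was given a window from 1000 bp upstream of its 5' end to 200 bp beyond its 3' end, about 1295 bp in all, and the best-ranked peak summit in that window was taken from each list. The best summits of different lists can be different sites in 1 window. The PQM-1 peaks came from ChIP-seq, the sequencing of DNA that is precipitated together with a protein, on whole L1 larvae, the first larval stage, of both sexes together. There was 1 group of 3 biological replicates, as the labels call them, and all came from strain OP201, which carries the unc-119 allele tm4063 on chromosome III and the insertion wgIs201, a stable transgene for PQM-1 with GFP and FLAG tags at its C terminus. The study had no untagged or untreated group in these files, the age of the larvae was given as unknown, and whole animals do not show in which cells a site was bound. The deposited ce11 lists held 30000 peaks for each replicate and for the pooled alignments, together with 682 IDR peaks (irreproducible discovery rate, a measure of how steadily a peak is ranked), which were the 682 highest pooled peaks by signal. Rank 1 is the highest signal of a list, and read depth is unknown.

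MicroRNAs are short RNAs cut from a hairpin in a longer primary transcript. They guide an Argonaute protein to messenger RNAs, mostly by pairing of bases 2 to 8, the seed, and microRNAs with 1 seed form a family. Some lie in introns of protein-coding genes and can be made from the host's transcript, while others have promoters of their own, which can lie far upstream of the hairpin. PQM-1 is a zinc-finger protein of the insulin signalling pathway, known in the intestine, and is linked to the DNA word TGATAAG, which resembles the site of GATA factors.

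A total of 6 microRNA genes had an IDR summit in the window, namely mir-354, mir-52, mir-4929, mir-60, mir-239a and mir-239b. The last pair lies head to head and shared 1 peak, so 5 peaks were involved. With the window drawn to 2000 bp, mir-238, mir-71, mir-62 and mir-47 also had one. The mature RNAs of the genes at the centre of these results are shown with the seed in capitals, read by annotated coordinates from the RefSeq copy of WBcel235, from 5' to 3' on the strand of the gene. They are shown because mir-239a, mir-239b and mir-238 share a seed, as do mir-52 and mir-51.

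mir-239a 5' arm: uUUGUACUacacauagguacugg
mir-239b 5' arm: uUUGUACUacacaaaaguacug
mir-238 3' arm: uUUGUACUccgaugccauucaga
mir-52 5' arm: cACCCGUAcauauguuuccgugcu
mir-51 5' arm: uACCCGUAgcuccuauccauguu
mir-60 3' arm: uAUUAUGCacauuuucuaguuca
mir-4929: aAUGCACCacaucuuacgcuca

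The 101 bases centred on the pooled summit are shown for the IDR peaks of 5 of these genes, for the IDR peak of mir-238, and for mir-270, the best-ranked gene outside the IDR list. They read 5' to 3' on the plus strand of WBcel235. Capitals mark 4 words on either strand: TGATAAG, its shorter form TGATAA, the E-box word CACGTG and the TATA-box word TATAAA. On the minus strand TGATAA reads TTATCA, and the TATA word reads TTTATA. The stretches lie at chrIV:14033826-14033926 (mir-52), chrII:6328830-6328930 (mir-60), chrX:11792080-11792180 (mir-239a and mir-239b), chrII:13462087-13462187 (mir-4929), chrIII:8868415-8868515 (mir-238) and chrIV:3258739-3258839 (mir-270).

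mir-52: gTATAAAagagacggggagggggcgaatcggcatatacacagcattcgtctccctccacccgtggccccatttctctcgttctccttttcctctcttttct
mir-60: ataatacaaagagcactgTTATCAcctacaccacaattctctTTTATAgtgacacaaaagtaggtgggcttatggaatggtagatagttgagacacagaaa
mir-239a and mir-239b: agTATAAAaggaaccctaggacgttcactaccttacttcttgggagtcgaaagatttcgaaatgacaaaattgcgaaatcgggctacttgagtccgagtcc
mir-4929: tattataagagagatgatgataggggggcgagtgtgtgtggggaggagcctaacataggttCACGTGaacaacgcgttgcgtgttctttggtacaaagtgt
mir-238: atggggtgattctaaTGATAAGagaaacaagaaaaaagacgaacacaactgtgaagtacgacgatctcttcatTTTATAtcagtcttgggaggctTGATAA
mir-270: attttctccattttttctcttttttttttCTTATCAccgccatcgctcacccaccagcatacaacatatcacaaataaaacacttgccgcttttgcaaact

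The mir-52 gene (chrIV:14034008-14034107, plus strand) belongs to the mir-51 family, the worm relatives of miR-100, which act in embryonic development and attachment of the pharynx. Its peak (chrIV:14033731-14034020) had pooled rank 225 and ranks 521, 175 and 838 in replicates 1, 2 and 3. Replicates 1 and 2 placed it within their 682 highest peaks, here called the top list of a replicate, and replicate 3 placed it just outside. The signal, as the authors' caller gave it on a scale of its own for each list, was 20.8, 17.4 and 11.1 in the 3 replicates and 47.9 in the pooled list. The pooled summit lay 132 bp upstream of the annotated 5' end, outside every protein-coding promoter window, which reaches from 1000 bp upstream to 200 bp downstream of a 5' end, and the nearest protein-coding gene, Y37A1B.7, had its 5' end 9904 bp away. Of the 6 genes, mir-52 had the smallest distance between its best and its worst replicate rank.

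The mir-60 gene (chrII:6328702-6328799, minus strand) makes a microRNA of the intestine, the tissue in which PQM-1 is best known. Its peak (chrII:6328735-6329024) had pooled rank 430 and replicate ranks of 736, 6205 and 146. The order of the replicates was thus the reverse of that at mir-52, with replicate 3 highest and replicate 2 lowest. The summit lay 81 bp upstream of the annotated 5' end, outside protein-coding promoter windows and 2461 bp from the 5' end of set-4. It was the closest to its microRNA gene of the 6, and the only one with TGATAA within 50 bp.

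The genes mir-239a (chrX:11792445-11792542, plus strand) and mir-239b (chrX:11791302-11791399, minus strand) are studied for their part in stress resistance and lifespan, and loss of both has been reported to lengthen life. They diverge from the interval that held the shared peak (chrX:11791985-11792274). The peak had pooled rank 613, near the lower end of the IDR list, and replicate ranks of 4952, 236 and 7038. Replicate 2, with a signal of 15.9, alone had it in the top list, and the other replicates ranked it far lower. The summit lay 315 bp upstream of mir-239a and 731 bp upstream of mir-239b, 6375 bp from the 5' end of rsd-3, the nearest protein-coding gene.

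The mir-4929 gene (chrII:13461755-13461864, minus strand) lies in an intron of E01G4.3 and on the same strand. Its peak (chrII:13461992-13462281) had pooled rank 335 and replicate ranks of 116, 3368 and 2889, so replicate 1 alone had it in the top list. The summit lay 273 bp upstream of mir-4929, but also 92 bp upstream of an annotated 5' end of the host E01G4.3, and which of the genes the site belongs to was not resolved. This was the only one of the 5 peaks with CACGTG within 50 bp.

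The mir-354 gene (chrI:14468382-14468491, minus strand) lies within rps-20, a ribosomal protein gene on the same strand, and overlaps an exon of it. Its peak (chrI:14469236-14469525) was the best-ranked in any microRNA window, with pooled rank 167 and replicate ranks of 100, 341 and 6443. Replicates 1 and 2 had it in the top list and replicate 3 did not. The summit lay 890 bp upstream of mir-354 and 119 bp upstream of ekl-4, the nearest protein-coding gene, and it was in the promoter windows of both ekl-4 and rps-20. Of the 6 genes, mir-354 had the summit farthest from the hairpin.

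**Figure D1:**
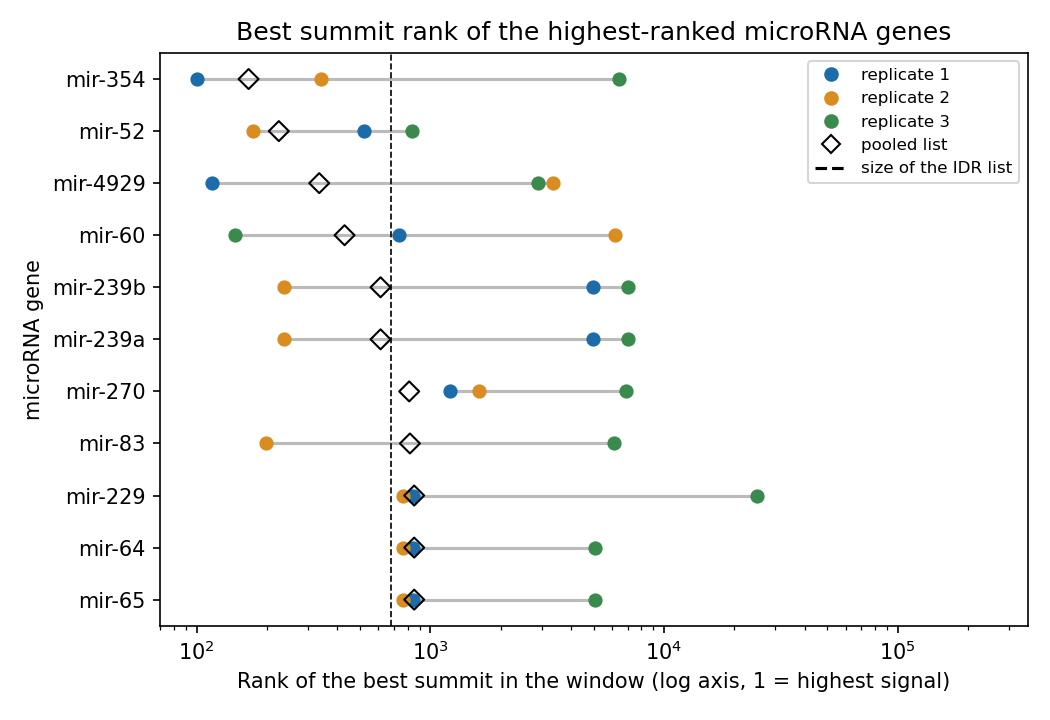
Rank of the best summit in the window (log axis, 1 is the highest signal) for the 6 microRNA genes with an IDR summit and the 5 next-ranked genes. Dots are the 3 replicates, diamonds the pooled list, the grey line joins the replicates and the dashed line marks rank 682, the size of the IDR list; mir-52 was the gene with the tightest ranks, from 175 to 838, and no gene had all 3 dots left of the line.

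The best-ranked IDR peak within 2000 bp upstream of any microRNA gene fell just outside the window. At mir-238 (chrIII:8867328-8867425, minus strand), a gene whose loss has been reported to shorten life, an IDR peak (chrIII:8868320-8868609) had pooled rank 156 and replicate ranks of 237, 641 and 312. This peak was in the top lists of all 3 replicates, which held for none of the 5 IDR peaks above. Its summit lay 1040 bp upstream of mir-238 in no protein-coding promoter window. Within the window itself mir-238 had a pooled rank of 3568, and of the replicates only replicate 3 had a peak that covered that summit, of rank 1000. The bantam-like gene mir-80 is the next microRNA gene on this stretch, and the same summit lay 3098 bp upstream of it. The 3 genes with the seed UUGUACU, mir-238, mir-239a and mir-239b, each had an IDR summit within 2000 bp upstream of the 5' end. A single peak accounts for both mir-239a and mir-239b. With 2000 bp, 3.83% of all microRNA windows had an IDR summit, beside 2.59% of protein-coding gene windows and 1.52% of consecutive genome windows. That distance was examined, and this family singled out, with the results known.

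The other genes gained with 2000 bp were mir-71, mir-62 and mir-47. The IDR summit of mir-71, a gene that promotes long life and is expressed in neurons and intestine, lay 1364 bp upstream in an intron of its host ppfr-1, with pooled rank 273 and ranks of 2609, 459 and 549. The same summit lay 8519 bp upstream of mir-2, the other microRNA gene hosted by ppfr-1. Near the mir-62 gene, which lies in an intron of ugt-50, a summit 1070 bp upstream was in the ugt-50 promoter window and had pooled rank 577 and ranks of 1912, 644 and none. The summit at mir-47 lay 1440 bp upstream in no protein-coding promoter window, with pooled rank 514 and ranks of 390, 2886 and 7937. TGATAAG lay within 50 bp of the summit at mir-238, mir-62 and mir-47, and CACGTG at mir-71.

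The best-ranked genes outside the IDR list were mir-270, mir-83 and the neighbours mir-229, mir-64 and mir-65. The mir-270 summit (pooled rank 813; 1212, 1623 and 6892 in the replicates) lay 240 bp upstream of mir-270 and 121 bp upstream of T26C12.1, and it held TGATAAG. At mir-83, a gene that acts with mir-34 in migration of the gonadal distal tip cells, the summit lay 151 bp upstream with pooled rank 819. The peak that covered it ranked 199 in replicate 2 and 15647 in replicate 3, and none covered it in replicate 1, so it was high in a single replicate. The best rank of 6148 in that window in replicate 3 belonged to another summit, 531 bp away. The genes mir-229, mir-64 and mir-65 share 1 peak in an intron of gcn-1, with pooled rank 854, and the peak that covered it ranked 843 in replicate 1 and 24958 in replicate 3. No peak of replicate 2 covered this summit, and the rank of 762 in that replicate belonged to another summit in the windows.

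By family, the seed ACCCGUA joins mir-51 to mir-56, of which mir-52 was the member with an IDR summit. The clustered mir-54, mir-55 and mir-56, in an intron of F09A5.3, had pooled ranks of 2390, 1687 and 1687, and the best replicate summits in their windows, the same for all 3, ranked 2331, 904 and 2048. Those summits lay up to 609 bp from the pooled ones. Neither mir-51 nor mir-53 had a pooled summit. Yet mir-51 had a summit of rank 307 in replicate 3, beside 22236 and 13487 in replicates 1 and 2. The peaks of this family thus differed between its loci in rank and in the replicate that was highest.

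None of the 6 developmental timing genes had an IDR summit, and 3 had a pooled summit. At lin-4, the founding microRNA, and at mir-48 of the let-7 family, no list had a summit in the window. For let-7, which drives the larval-to-adult transition, the pooled rank was 7422, and the peak that covered this summit ranked 6353 in replicate 1 and 7574 in replicate 3, with none in replicate 2. The best ranks of 3975 and 1013 in the let-7 window in replicates 1 and 2 belonged to other summits. The pooled summit held TGATAAG and lay 512 bp inside the gene, which is annotated as a transcript of 1732 bp. The let-7 relatives mir-241 and mir-84 had pooled ranks of 28009 and none, and mir-84 had a single replicate summit, ranked 28465 in replicate 1. The lin-4 relative mir-237 had pooled rank 14593.

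Among 6 genes linked to stress and lifespan, 2 had an IDR summit in the window (mir-239a and mir-239b) and 5 had a pooled summit. The 2 share a single peak, and the 5 pooled summits were 4 distinct peaks. Over all 261 microRNA windows, 2.30% had an IDR summit and 47.9% a pooled summit. The best pooled ranks of mir-71 and mir-246 inside their windows were 11624 and 15491, and mir-34, a family conserved to mammals, had no summit in any list. Of the 3 intestinal genes, mir-60 had an IDR summit. The neighbours mir-240 and mir-786, the latter needed for the defecation rhythm, shared a summit of pooled rank 25732 that no peak of a replicate list covered. Replicate 2 had another summit in their windows, of rank 19946, 652 bp from the pooled one.

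In the 6 neuronal and glial genes there was no IDR summit. The neuronal mir-124 had pooled rank 6523 and ranks of 2765, none and 27692, the glial mir-228 had pooled rank 26720, and lsy-6, which sets left-right asymmetry of taste neurons, had a summit of rank 27744 in replicate 3 alone. The muscle gene mir-1 had 1 summit, of rank 6342 in replicate 3. The mir-35 family, needed in embryos, had 8 genes and 1 pooled peak: the 7 clustered genes shared the peak of rank 8474, which replicate 3 ranked at 3080, and mir-42 had none. The 9 genes listed as bantam-like do not all share 1 seed, since GAGAUCA is carried by 6 microRNA genes and mir-58a has GAGAUCG. In that list mir-58a, an abundant microRNA of the worm, had a summit 340 bp upstream with pooled rank 918. The other 8 had no pooled summit. The replicate peaks that covered the mir-58a summit ranked 4961, 28059 and 7816, and the best rank of 5713 in that window in replicate 2 belonged to another summit, 496 bp away. At mir-80 the replicate ranks were 15845, 25000 and 1631. These lists are short and many of their genes share a peak with another, so the counts are not independent and are descriptions.

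**Figure D2:**
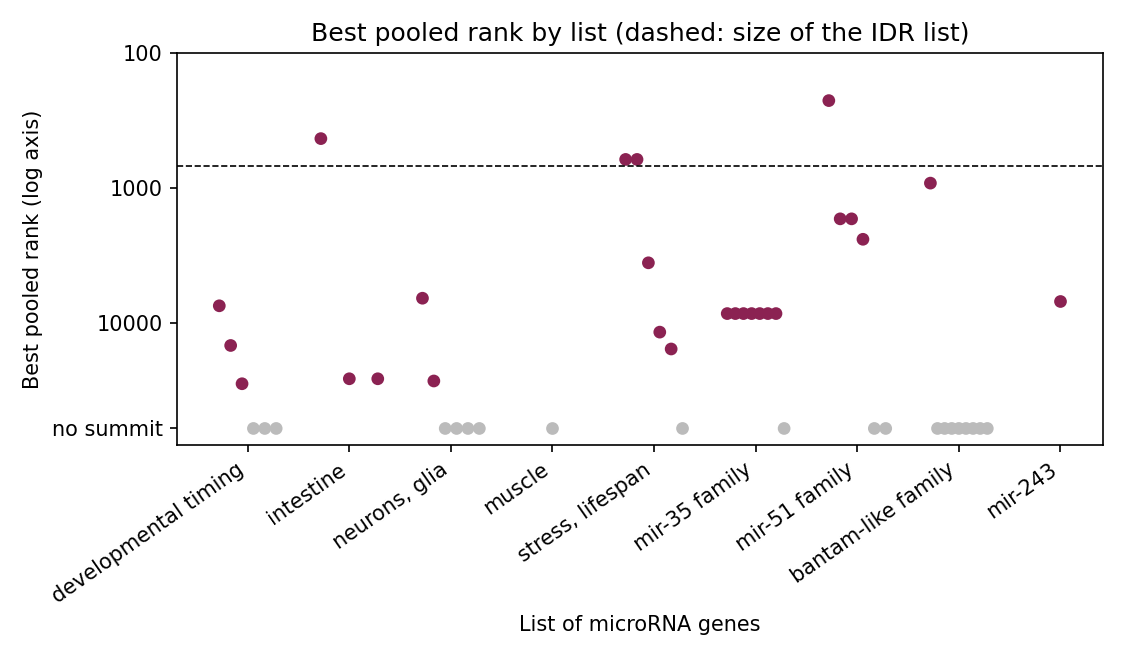
Best pooled rank in the window (log axis, highest signal at the top) of the microRNA genes in 9 lists of function or family, with genes that had no pooled summit in grey at the bottom. The dashed line marks rank 682; the genes above it are mir-60, mir-239a, mir-239b and mir-52, and the 7 points at 8474 in the mir-35 family are a single peak.

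Set against the genome, strong PQM-1 peaks were about as frequent at microRNA genes as at protein-coding genes. An IDR summit lay in 6 of 261 windows (2.30%, 95% exact binomial interval 0.848 to 4.94), beside 1.93% of 19973 protein-coding gene windows and 0.873% of 77426 consecutive genome windows of the same length. The interval holds both values. Widening the upstream reach to 2000 bp gave 10 of 261 (3.83%, 1.85 to 6.93), beside 2.59% of protein-coding windows and 1.52% of genome windows; the interval then lies above the genome windows and holds the protein-coding value. Intervals here cover counting of windows, treat windows as independent and say nothing of read depth. The windows were not independent, since 66 genes lay in 24 groups of overlapping windows and 195 had a window of their own. By chromosome, the 6 genes were 2 of 49 on II, 2 of 74 on X, 1 of 33 on I and 1 of 50 on IV, with none of 27 on III or 28 on V.

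Single replicates gave different counts. A top-list summit lay in 3 windows in replicate 1 (1.15%, 0.238 to 3.32), in 7 in replicate 2 (2.68%, 1.08 to 5.45) and in 2 in replicate 3 (0.766%, 0.0929 to 2.74). The same shares were 1.88%, 2.11% and 1.19% for protein-coding windows and 0.88%, 0.873% and 0.878% for genome windows. The mean over replicates was 1.53% ± 1.01 (SD, n = 3) at microRNA genes and 0.877% ± 0.00342 (SD, n = 3) in genome windows. The share was higher at microRNA genes in 2 of 3 replicates, and the mean difference was 0.656 percentage points ± 1.02 (SD, n = 3; two-sided exact sign-flip permutation test, p = 0.5, where the smallest p that 3 replicates allow is 0.25). The difference was smaller than the spread between replicates. Against protein-coding windows the mean difference was -0.196 ± 0.681 percentage points (SD, n = 3), also within that spread.

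No microRNA gene had a top-list summit in all 3 replicates (0 of 261, interval up to 1.4%), beside 0.295% of protein-coding windows and 0.127% of genome windows, and 2 had one in at least 2, mir-354 and mir-52. Outside the IDR list, 4 genes were in the top list of 1 replicate: mir-83, mir-392 (rank 479) and mir-8192 (rank 538) in replicate 2, and mir-51 in replicate 3. Across the windows with a summit in both of 2 replicates, Spearman's rho of the best ranks was 0.374 for replicates 1 and 2 (52 windows), 0.142 for 1 and 3 (53) and -0.000351 for 2 and 3 (59). Some of these windows share peaks, and the values are descriptions.

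Lower-ranked summits were common. In the pooled list 125 windows had a summit (47.9%, 41.7 to 54.1), from 106 distinct peaks, beside 40% of protein-coding windows and 34.3% of genome windows. The median best rank of those 125 was 9319, against 11946 and 14188 in the protein-coding and genome windows that had one. In replicates 1, 2 and 3 the microRNA medians were 11644, 11744 and 8047, beside 11877, 11486 and 14166 in protein-coding windows. The genome-window medians were 14078, 14091 and 13938. Against protein-coding windows the microRNA median was thus close in replicates 1 and 2 and clearly better in replicate 3 alone. A shared peak enters these medians once for each gene. In replicates 1, 2 and 3, any summit lay in 96, 115 and 125 windows (36.8%, 44.1% and 47.9%), beside 41.3%, 40.8% and 33.7% of protein-coding windows and 34%, 33.8% and 33.6% of genome windows. The order of microRNA and protein-coding windows was thus reversed between replicate 1 and replicates 2 and 3. Among genes with a window of their own, 40%, 43.1% and 44.6% had a summit in replicates 1, 2 and 3. In all, 34 genes had a summit in the pooled list and each replicate list, and 72 had none in any.

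**Figure D3:**
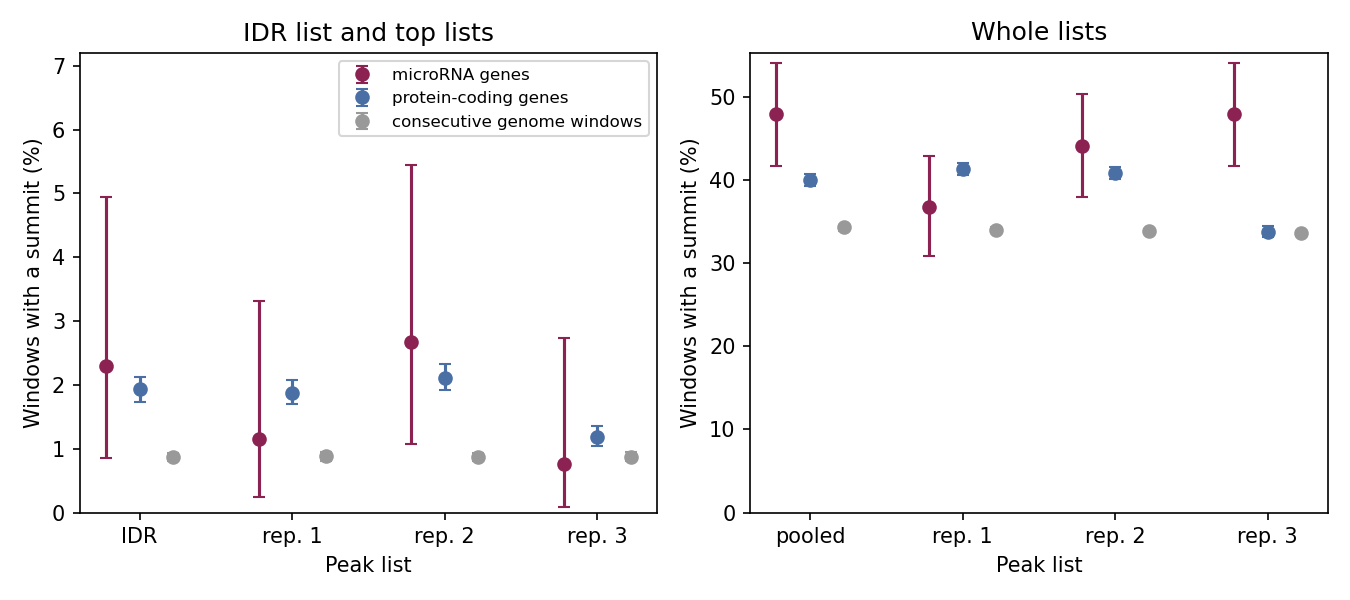
Percent of windows with a summit for microRNA genes, protein-coding genes and consecutive genome windows, with 95% exact binomial intervals as bars. On the left, strong peaks (the IDR list and the 682 highest peaks of each replicate) gave microRNA shares from 0.766% to 2.68%; on the right, whole lists gave 36.8% in replicate 1 and 47.9% in replicate 3.

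The best-ranked summits of all 3 replicates seldom lay together at the pooled summit. Of the 125 genes with a pooled summit, the best-ranked replicate summit lay within 150 bp of it in 62, 49 and 58 genes for replicates 1, 2 and 3, and in 13 genes for all 3. These counts can miss a shared site, because a replicate can hold a lower-ranked peak at the pooled summit. At mir-58a, covering peaks had summits 108, 18 and 73 bp from it, but the best-ranked summit of replicate 2 lay 496 bp away. Such counts are not given here for other windows. By position, 103 of the 125 pooled summits lay upstream of the microRNA gene, 10 inside it and 12 downstream, in a window that is mostly upstream by construction. The median was -316 bp from the 5' end (quartiles -612 and -83 bp). A total of 32 summits were also in a protein-coding promoter window and had a median rank of 5260, against 10460 for the others. Introns held 46 of the summits, exons 11 and sequence between protein-coding genes 68. Start sites of primary transcripts are not annotated for most microRNAs, so distances are to the annotated gene, which for most is the hairpin.

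**Figure D4:**
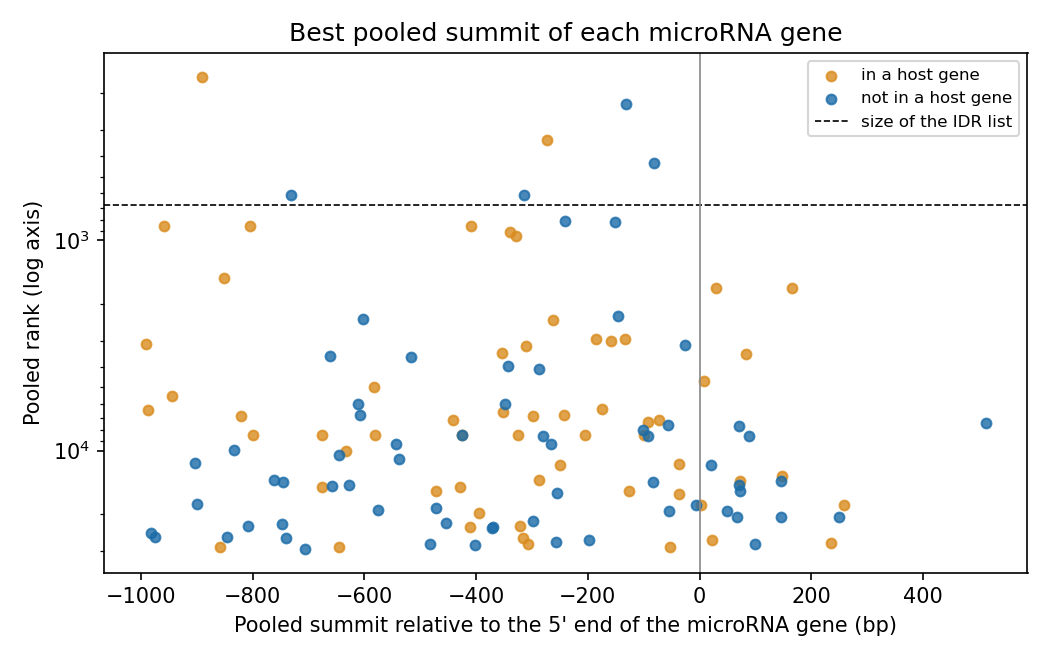
Position of the best pooled summit relative to the 5' end of the microRNA gene (bp, upstream to the left) against its pooled rank (log axis, highest signal at the top) for the 125 genes with one, coloured by whether the gene lies in a host gene. The points above the dashed line at rank 682 are the 6 genes with an IDR summit, all upstream, from -890 to -81 bp.

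A host gene, meaning a protein-coding gene whose span holds the whole microRNA gene, was found for 106 members, 74 on the same strand and 32 on the opposite one. An IDR summit lay at 2 of 106 hosted genes (1.89%, 0.229 to 6.65) and 4 of 155 unhosted ones (2.58%, 0.708 to 6.48), and the intervals overlap. Both hosted genes with one, mir-354 and mir-4929, were on the host's strand, and both summits were also in the host's own promoter window. Pooled summits of any rank lay at 56.6% of hosted and 41.9% of unhosted genes. Hosted genes had the higher share in each replicate, at 41.5%, 51.9% and 57.5% against 33.5%, 38.7% and 41.3%. Overlapping windows were counted as often as they held genes, and the 7 genes of the mir-35 cluster were all hosted.

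TGATAAG, searched within 50 bp of the summit on either strand, was absent from all 5 IDR peaks in microRNA windows (0 of 5, interval up to 52.2%), while 38.1% of the 682 IDR peaks and 1.72% of consecutive genome windows of 101 bp held it. TGATAA, the same word without its last letter and so counted wherever TGATAAG occurs, lay at mir-60 alone, beside 62% and 9.35%. The shorter GATA, contained in both, lay at 3 of 5, beside 83.7% and 47.3%, and GAATAGT, a control word of the letters of the first, at 0 of 5, beside 1.03% and 1.36%. CACGTG lay at 1 of 5, mir-4929, beside 4.11% of all IDR peaks and 1.67% of genome windows. Exact intervals on counts out of 5 are wide, and that for 1 of 5 runs from 0.505% to 71.6%. With 2000 bp upstream, the added IDR peaks at mir-238, mir-62 and mir-47 held TGATAAG within 50 bp, and that at mir-71 did not.

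TATAAA was searched after the printed sequences had been read. It lay within 50 bp of 3 of the 5 summits, those of mir-52, mir-60 and mir-239a with mir-239b. The share was 8.36% over all IDR peaks and 11.2% over genome windows. Within 25 bp it lay at 1 of 5, beside 3.81% of all IDR peaks, and within 100 bp at 3 of 5, beside 16.3%. As the word was picked from these same sequences, the counts cannot show an enrichment, and no interval is given. It was on the strand of the microRNA at mir-52, mir-60 and mir-239a, and on the opposite strand for mir-239b. The 3 peaks with the word were those outside protein-coding promoter windows, and the 2 peaks inside such windows lacked it. The mir-238 peak held both TATAAA, on the strand of mir-238, and TGATAAG. Among the 101 best pooled peaks of windows beyond the IDR list, TATAAA lay at 10.9% and TGATAAG at 5.94%, beside 9.16% and 4.15% of all 29318 pooled peaks beyond that list. A match shows that the letters are there and does not show binding.

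Whole microRNA windows held TGATAAG in 57 of 261 cases (21.8%), close to 24.7% of protein-coding and 20.2% of genome windows. An IDR summit lay in 2 of the 57 windows with the word (3.51%, 0.428 to 12.1) and 4 of the 204 without it (1.96%, 0.537 to 4.94). The 2 were mir-239a and mir-239b, whose windows hold the word more than 50 bp from the shared summit. In protein-coding windows the shares were 4.51% with the word and 1.08% without.

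Of 39 genes that make, use or are classic targets of microRNAs, 38 had an entry of that name, and 2 had an IDR summit in a promoter window drawn on any annotated 5' end (5.26%, 0.644 to 17.7), beside 2.18% of all protein-coding genes. The interval holds that background. The 2 were nhl-2, which encodes an RNA-binding TRIM-NHL protein that enhances let-7 activity, and vig-1, which encodes a component of the microRNA effector complex. The nhl-2 summit lay 812 bp upstream (chrIII:4899752-4900041), with pooled rank 33 and best replicate ranks in the promoter window of 22, 48 and 2379, and was also in the tag-340 window. The vig-1 summit lay 430 bp upstream (chrII:1320462-1320751), with pooled rank 215 and best replicate ranks in the window of 1180, 101 and 522. Neither held TGATAAG within 50 bp. By role, IDR summits were found for 0 of 6 processing genes such as drsh-1 and dcr-1, and for 1 of 9 effectors and modulators. In the list of Argonaute, GW182 and other effector-complex genes it was 1 of 6, namely vig-1. The Argonaute genes alg-1, alg-2 and alg-5 and the GW182-type genes ain-1 and ain-2 had none. The counts were 0 of 7 turnover and tailing genes and 0 of 10 classic targets such as lin-14 and lin-41. The best ranks beyond the IDR list were 768 at elo-2, a fatty acid elongase gene targeted by mir-786, with best window ranks of 1061, 989 and none, and 999 at ain-1, a GW182-type gene, with best window ranks of 4092, 600 and 3665.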

How the data were processed

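Peak lists from 3 biological replicates of 1 group were used. Per the README files deposited beside the samples, a control entered the peak calling, which was run once for every replicate and once for the alignments pooled. Which caller, aligner or threshold was used is not given in the sources used here. The authors' signal, in column 7 of the deposited lists, is on a scale that differs between lists, and was used to rank peaks within a list. Column 9, a score in the deposited lists, was not used to rank. Positions are on ce11, 1-based.

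Genes came from Ensembl release 115, names and sequence from RefSeq's WBcel235, and all 261 genes matched a RefSeq symbol. A summit counted when it lay in the window. The top list of a replicate was its 682 highest peaks. Shares have 95% exact binomial intervals, and the replicate shares were compared with an exact sign-flip test. The lookup functions were tested on simulated data.

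Members, lists, words and comparisons were chosen with earlier results of these data known. The genes named were those with an IDR summit or with top-list summits in at least 2 replicates, the 5 next by pooled rank and a fixed list of well-studied microRNA genes. The genes mir-392, mir-8192, mir-62, mir-47, mir-2, mir-42, mir-53, mir-54, mir-55, mir-56, mir-237, mir-240, ain-1, elo-2 and the other pathway genes without an IDR summit were named after their values were seen. Alternatives were other windows, peak overlap, merged windows, other list sizes, left-out replicates, same-strand hosts and other word distances. Figures were drawn with matplotlib 3.10.9, and values were computed in Python 3.11.15 with SciPy 1.17.1, pandas 2.3.3 and numpy 2.4.6.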

Additional observations from a re-analysis of the deposited data

How the results depend on the processing

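The count of 6 genes with an IDR summit became 10 with 2000 bp upstream and 3 when IDR peaks of rank 341 or better alone were kept. It ran from 0 to 2 when each replicate was left out in turn and the IDR summit had to lie in top-list peaks of both others; the 2, without replicate 3, were mir-354 and mir-52. It was 4 with 500 bp, without mir-354 and mir-239b, 8 with peak overlap, adding mir-238 and mir-62, and 5 with overlapping windows merged. The count of 0 genes in the top lists of all 3 replicates became 1 with 2000 bp, 1 with peak overlap and 1 with 2 times as many top peaks, and ran from 0 to 2 with a replicate left out. The difference in top-list share from genome windows, 0.656 percentage points, ran from 0.079 without replicate 2 to 1.04 without replicate 3. Hosted minus unhosted share of IDR summits turned from -0.694 to 0.564 percentage points with same-strand hosts only. In that setting the 32 genes with an opposite-strand host, of which 0 had an IDR summit, were counted as unhosted. Same-strand hosted genes had one in 2 of 74 cases (2.7%), beside 4 of 155 genes with no host (2.58%). Pathway genes with an IDR summit fell from 2 to 1 with 500 bp. The count of 125 pooled summits ran from 91 with 500 bp to 166 with 2000 bp. TGATAAG stayed at 0 of 5 IDR peaks at 25 and 100 bp from the summit, with the window kept at 1000 bp upstream. That absence did depend on the window, since the IDR peaks added with 2000 bp at mir-238, mir-62 and mir-47 held the word within 50 bp. An added alternative, chosen after seeing the data, kept genes with a window of their own and gave 4 of 195 with an IDR summit and 89 with a pooled summit. No paired analysis was possible because the study has 1 group. Depth is unknown, the control was not analysed here, and with 3 replicates no test of the shares could reach 0.05.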

Other observations

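The genes below were chosen after their values were seen. TGATAAG lay within 50 bp of the best pooled summit at 6 microRNA genes outside the IDR list: mir-270 and let-7, described above, and mir-75, mir-5592-1, mir-63 and mir-248. The mir-75 summit, 146 bp upstream and in no protein-coding promoter window, had pooled rank 2290 and replicate ranks of 3597, 993 and 27167. At mir-5592-1, hosted by aakb-1, the summit had pooled rank 5520 and lay in the cest-13 promoter window. The summits of mir-63 (pooled rank 14085) and mir-248 (27329) were in replicate 1 alone of the replicate lists. At the hosted mir-253 and mir-8192 the pooled summit lay in the promoter window of the host, at ranks beyond the IDR list. At mir-253, in an intron of F44E7.5, the summit lay 328 bp upstream in the F44E7.5 window, with pooled rank 958 and replicate ranks of 8215, 858 and 8314. At mir-8192, in an intron of flcn-1, it lay in the flcn-1 window, with pooled rank 3190 and replicate ranks of 18554, 538 and none. The unhosted mir-392 had pooled rank 2381, with 8138, 479 and none in the replicates, in the F54B11.5 window. Replicate 2 gave the best rank at mir-75, mir-253, mir-8192 and mir-392. Over all 261 genes the nearest IDR summit lay a median of 52657 bp from the 5' end, and 13 genes (4.98%) had one within 2000 bp on either side. No such values are given here for protein-coding genes or genome windows. These distances therefore do not show whether microRNA genes lie nearer to IDR peaks than other places do.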
